A study of Mus musculus with 9 samples.

Results

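Long intergenic noncoding RNAs (lincRNAs) were examined in the aorta of mice that lack a working Apoe gene. The members are the rows that the deposited expression table classes as lincRNA, chosen by their measured level: each reached at least 1 FPKM (sequenced fragments per kilobase of gene, corrected for library depth) in at least 3 of the 9 libraries. This rule kept 226 of 5559 lincRNA rows, in a table of 54532 genes, and 3144 lincRNA rows were listed at 0 in every library. The same filter kept 13883 genes of all classes, of which 12083 are protein-coding. All 9 mice were Apoe-/-, began the regimen at 6 to 8 weeks of age and stayed on it for 24 weeks. Aortas came from 3 mice fed chow (CD), from 3 fed a high fat diet (HFD), and from 3 that ate the high fat diet while receiving ammonium iron(III) citrate by intraperitoneal injection (HFD_IO). The deletion is thus shared by every group, and no mouse with working Apoe and no chow-fed mouse given iron was analysed here. The whole aorta was sequenced, so each value is a mixture of smooth muscle, endothelium, adventitia, plaque cells and any attached fat.

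LincRNAs are transcribed by RNA polymerase II from stretches between coding genes, and most are spliced and polyadenylated but carry no long reading frame. Many stay in the nucleus, where Neat1 forms the scaffold of paraspeckles and Malat1 collects in nuclear speckles. Others are known mainly as the transcripts from which small nucleolar RNAs or microRNAs are cut, and imprinted lincRNAs such as H19 and Meg3 are read from the maternal chromosome. For most members no function is established: 203 of the 226 carry a number or clone name in place of a descriptive symbol.

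The members were short and weakly expressed beside coding genes. Their median gene length in the table was 1379 bases and their median FPKM, averaged over the 9 libraries, was 1.71, whereas the tested coding genes had medians of 4305 bases and 7.05 FPKM. A mean under 2 FPKM was found for 130 members and a mean over 10 FPKM for 18. The 10 most abundant members held 45.6% of the summed mean FPKM of all 226. In descending order they were Bvht (152.6), Malat1 (89.1), Gm10076 (56.05), 2900097C17Rik (47.1), Snhg18 (44.1), Neat1 (33.3), Tmem250-ps (24.0), 1700020I14Rik (20.5), 1810058I24Rik (19.9) and Gm26532 (19.3), each as mean FPKM over all libraries. The order differed between groups: in HFD the means were 63.9 for Bvht, 47.9 for Gm10076, 44.1 for Snhg18, 43.8 for 2900097C17Rik and 33.8 for Malat1. The place of Gm10076 owes much to 189 FPKM in HFD_IO_3. At least 1 FPKM in every library was reached by 78 members, and 40 passed the filter in exactly 3 libraries. Of these 40, 10 passed in the 3 CD libraries, 1 in the 3 HFD libraries and 2 in the 3 HFD_IO libraries, so their levels had to differ between groups and their changes are descriptions only. Members just inside the limit were Gm36543, Gm28982 and Gm10451, whose values in the library that decided were 1.003, 1.005 and 1.008 FPKM. Just outside were Gm44507 at 0.9996, Gm20045 at 0.9946 and Gm14005 at 0.9882 FPKM.

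Reads were recovered from FPKM and gene length and summed to between 16660963 and 18308450 per library. LincRNAs took a small share of them, which was highest on chow. In the CD libraries the members held 0.462%, 0.460% and 0.487% of the reads. In the HFD libraries the shares were 0.231%, 0.170% and 0.186%, and in the HFD_IO libraries 0.373%, 0.280% and 0.308%. The 3 groups did not overlap, with means ± SD of 0.469 ± 0.0150% in CD, 0.195 ± 0.0317% in HFD and 0.320 ± 0.0474% in HFD_IO (n = 3 each). Malat1 alone supplied 0.104 ± 0.0169% in CD, 0.0225 ± 0.00741% in HFD and 0.0656 ± 0.00959% in HFD_IO. Without it the same order of means remained, at 0.366%, 0.173% and 0.255%. In bulk tissue fewer cells of a type and less RNA per cell cannot be told apart, here and in every result that follows. The members were chosen with these data in view, so no test was made of the summed share.

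**Figure D1:**
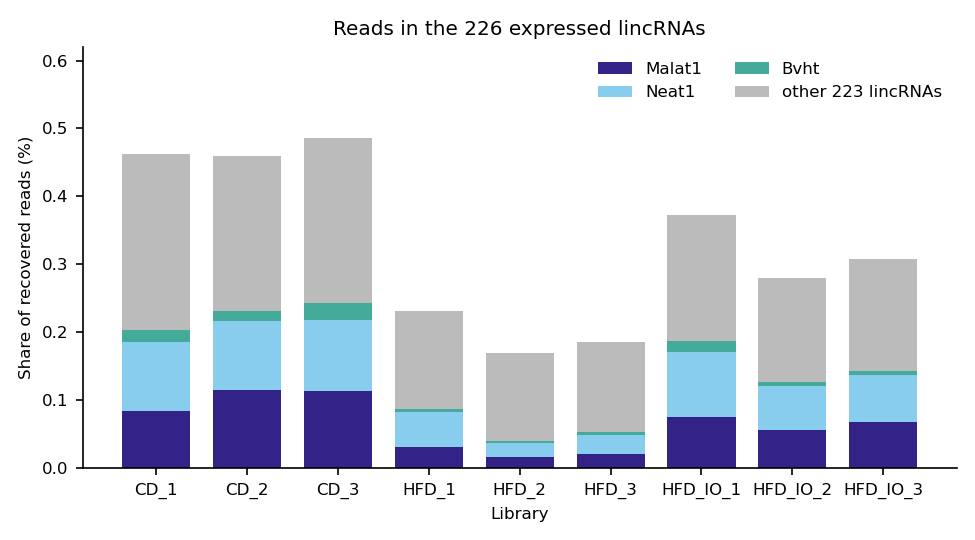
Share of recovered reads (%, vertical axis from 0) in the 226 lincRNAs in each of the 9 libraries, with Malat1, Neat1 and Bvht drawn apart from the other 223. The CD bars reach 0.460% to 0.487%, the HFD bars 0.170% to 0.231% and the HFD_IO bars 0.280% to 0.373%.

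The design compares high fat diet with chow, iron on top of high fat diet, and both together with chow. Changes below are log2 differences of FPKM + 1, each with the standard error (SE) from limma, and a member is called higher or lower where its Benjamini-Hochberg adjusted p over all 13883 tested genes is under 0.05. Addition of 1 understates the change of weak members. The comparisons share libraries: HFD enters both of the first comparisons, and CD enters the first and the last. Values are therefore set side by side and not used as independent support. The labels number the aortas but do not say more on how samples were taken, so the p-values measure the spread between these samples.

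On high fat diet lincRNAs fell more often than they rose. Between HFD and CD, 85 members were lower and 17 higher, that is 37.6% and 7.52% of the 226, beside a background of 17.6% lower and 21.8% higher among all tested genes (39.4% called in either direction). The members' median log2 change was -0.39, while that of all tested genes was 0.06. The 78 members present in every library gave 32 lower and 6 higher with a median of -0.38. The group ranges of 120 members did not overlap, beside 50.7% of all tested genes. After rescaling to TPM, which moved the median of all genes to -0.30, 119 members were lower and 7 higher, beside 35.6% and 7.33% of all tested genes. Without CD_2 10 were higher, without CD_3 9, without HFD_2 9 and without HFD_3 11, beside 14.9%, 14.7%, 15.9% and 16.5% of all tested genes. The count of lower members stayed between 68 and 87 whichever single library was left out. For all tested genes the lower share in those fits ran from 12.0% to 20.5%.

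Iron on top of high fat diet was accompanied by more rises than falls, at lower counts. Between HFD_IO and HFD, 32 members were higher and 16 lower, or 14.2% and 7.08%, beside a background of 14.1% higher and 14.5% lower (28.6% in either direction). The share of higher members was thus near the background, and the median change was 0.15 beside 0.00 for all tested genes. The 78 members present in every library gave 14 higher and 11 lower, or 17.95% and 14.1%. The 148 others gave 18 higher and 5 lower. Coding genes with a mean FPKM between the lower and upper quartiles of the members had 15.96% higher and 6.585% lower, a similar split. Group ranges did not overlap for 84 members, beside 48.5% of all tested genes. Rescaling to TPM gave 37 higher and 10 lower, beside 17.1% and 8.36% of all tested genes, whose median was then 0.14. Leaving out HFD_2, HFD_3 or HFD_IO_3 gave 20 higher members in each case, and leaving out HFD_IO_1 gave 19. The count of lower members was 8 without HFD_3 and 8 without HFD_IO_2, beside 7.87% and 9.31% of all tested genes.

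Against chow, aortas of mice given high fat diet and iron had 63 lower and 14 higher members, or 27.9% and 6.20%. The background was 15% lower and 17.5% higher (32.5% in either direction). The median change was -0.30 for the members and -0.01 for all tested genes, and the groups of 110 members did not overlap, beside 47% of all tested genes. Leaving out HFD_IO_2 reduced the lower members to 38, and the lower share of all tested genes fell to 9.08% in the same fit. TPM scaling gave 86 lower and 12 higher, beside 27.4% and 11.0% of all tested genes, whose median was then -0.23.

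**Figure D2:**
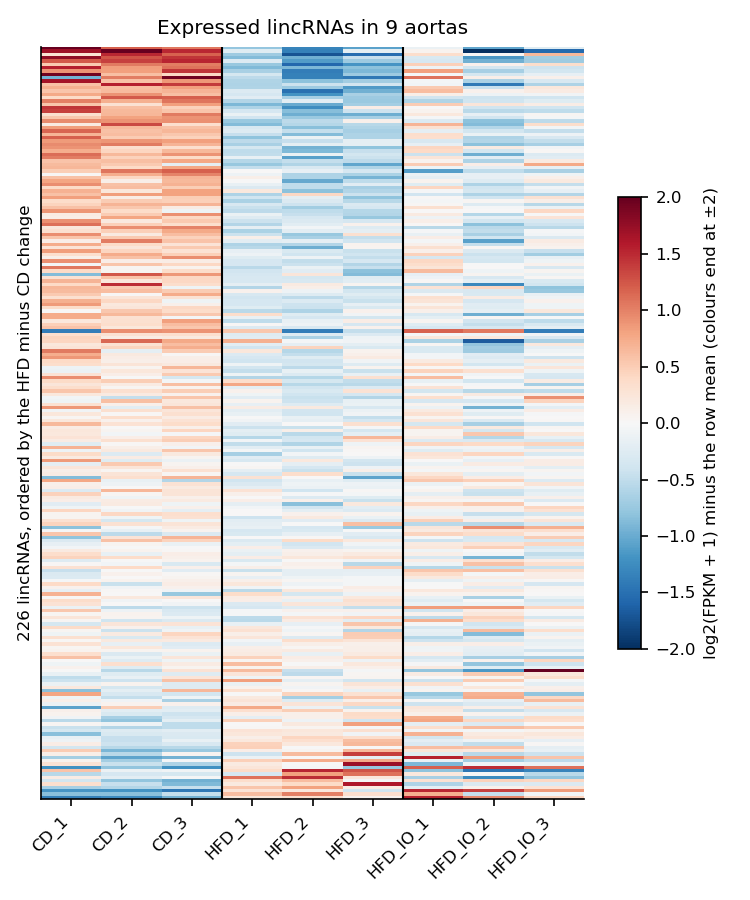
Level of each of the 226 lincRNAs (rows, ordered by the HFD minus CD change) in the 9 libraries (columns), as log2(FPKM + 1) minus the row's mean, with red above and blue below the mean. The upper rows are high in the 3 CD libraries and low in the HFD libraries, and the HFD_IO columns lie nearer to the HFD columns in some of these rows and nearer to the row mean in others.

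Other noncoding classes varied, and the difference between classes was not tested. Between HFD and CD the median change was -0.48 over 230 antisense genes, -0.57 over 93 genes of class TEC (models that await experimental checking) and -0.36 over 113 processed transcripts. The 31 genes of class bidirectional promoter lncRNA had a median of -0.06 with 2 lower and none higher, and their median was -0.09 between HFD_IO and HFD, where that of the members was 0.15. Processed pseudogenes (631) had a median of 0.38. Coding genes with a mean FPKM between the lower and upper quartiles of the members (2612) had a median of -0.07. The change of coding genes also ran with length: over 5 length classes the median was 0.41 in the shortest and -0.21 in the longest. Of 3 length classes of members, the longest had 36 lower and 3 higher of 76, and the shortest 23 lower and 6 higher of 76. Removing each library's trend on gene length raised the lower members between HFD and CD from 85 to 104 and gave 12 higher, beside 15.35% lower and 17.15% higher of all tested genes. The part of RNA quality in these length differences was not tested.

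**Figure D3:**
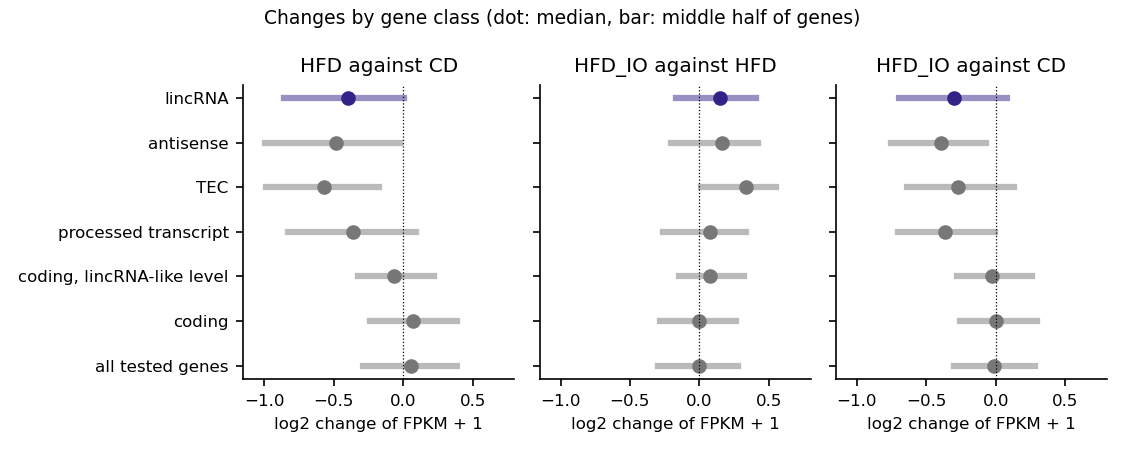
Median log2 change of FPKM + 1 (dot) and interquartile range (bar) for lincRNAs and 6 other gene sets in the 3 comparisons, with 0 dotted. The lincRNA median lies at -0.39, 0.15 and -0.30, and that of coding genes at 0.07, -0.0017 and 0.0047.

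Cell markers changed strongly between the groups and are given here as levels. Of 12 macrophage markers, 11 were higher in HFD than CD and 10 higher in HFD_IO than HFD, and their summed FPKM was 677 to 763.1 in CD, 3270 to 5372 in HFD and 5325 to 9113 in HFD_IO. Of 10 endothelial markers, 7 were lower in HFD than CD and 4 higher in HFD_IO than HFD (sums of 423.4 to 597.7, 137.4 to 263.5 and 273.4 to 326.7). Markers of smooth muscle, the main cell of the aortic wall, were present throughout (5495 to 6151, 7027 to 8205 and 2544 to 4321), and 6 of 10 were lower in HFD_IO than HFD. White adipocyte markers ran from 451 to 1028 in CD, 1063 to 2824 in HFD and 275 to 1713 in HFD_IO, and skeletal muscle markers from 5.29 to 11.2, 6.85 to 95.5 and 5.31 to 15.9. With the skeletal muscle level as a covariate, 26 members were lower and 2 higher between HFD and CD, beside 3.75% lower and 5.75% higher of all tested genes in the same fit. Between HFD_IO and HFD 6 were higher and 5 lower, beside 3.79% and 3.39%. With the white adipocyte level the counts were 48 lower and 11 higher (all genes 8.70% and 11.2%), then 9 higher and 9 lower (all genes 5.935% and 5.22%). CD_1 and HFD_3 stood apart from the others of their groups in the spread of recovered reads. Without both, 76 were lower and 16 higher between HFD and CD, beside 18.55% and 21.4% of all tested genes. HFD_IO_3 also lay apart by the chi-square per degree of freedom of recovered reads. It was 45.4 with HFD_IO_1 and 38.1 with HFD_IO_2, and 27.6 between those. The part of cell composition in the changes was not tested beyond these covariates.

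Of the 5 members in the list of nuclear and other widely studied lincRNAs, Malat1, Neat1, 1700020I14Rik and Ftx were lower on high fat diet, while 2900097C17Rik was not called. Malat1, Neat1 and 1700020I14Rik were higher with iron than on high fat diet alone. Malat1 (ENSMUSG00000092341, chromosome 19, 5795690 to 5802672, minus strand, GRCm38, 1 exon) was listed at 109, 156 and 154 FPKM in CD, 44.05, 24.7 and 32.6 in HFD and 105, 79.7 and 96.6 in HFD_IO. Every HFD value lay below every other one, and HFD_IO lay below all CD values. The change was -2.03 (SE 0.22, adjusted p = 0.000611) in HFD against CD and 1.48 (SE 0.22, adjusted p = 0.00285) in HFD_IO against HFD. Against CD, HFD_IO differed by -0.56 (adjusted p = 0.0854), which missed the threshold. Both calls held in every alternative analysis.

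Neat1 (chromosome 19, 5824708 to 5845478, minus strand) lies beside Malat1. It was listed at 44.2, 46.7 and 48.6 FPKM in CD, 24.4, 9.98 and 14.9 in HFD and 46.2, 31.6 and 33.5 in HFD_IO. HFD was lowest without overlap, and HFD_1 was the highest of that group. Neat1 fell by 1.53 (SE 0.27, adjusted p = 0.00323) on high fat diet and was 1.19 higher with iron (SE 0.27, adjusted p = 0.0126). The second call was lost with the white adipocyte covariate (0.995, adjusted p = 0.0851) and the skeletal muscle covariate (0.64, adjusted p = 0.1002). Of 13 genes for paraspeckle proteins, 7 were lower and 2 higher in HFD than in CD, beside 17.6% lower and 21.8% higher among all tested genes. Calls in both directions depended on single libraries. Among the lower ones, Pspc1 was lost without any of 8 single libraries (adjusted p from 0.0591 to 0.140), and Sfpq without CD_2, CD_3, HFD_2 or HFD_3 (adjusted p of 0.103, 0.0801, 0.0845 and 0.0668). The 2 higher genes, Nono (0.33, adjusted p = 0.0272) and Hnrnpk (0.28, adjusted p = 0.0427), took the opposite sign after TPM scaling (-0.059 and -0.11) and were not called there. The Nono call was also lost without CD_3, HFD_2 or HFD_3 (adjusted p of 0.0915, 0.101 and 0.0715), and the Hnrnpk call without any of 7 single libraries (adjusted p from 0.0545 to 0.145).

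1700020I14Rik, known as Cyrano, an RNA with a conserved pairing site for miR-7, was tightly grouped. It was listed at 25.1, 24.1 and 24.6 FPKM in CD, 15.1, 13.6 and 15.5 in HFD and 25.3, 22.4 and 18.8 in HFD_IO. HFD lay below both other groups, which overlapped each other. Its change was -0.70 (SE 0.11, adjusted p = 0.00239) and then 0.55 (SE 0.11, adjusted p = 0.00935), and the second missed the threshold at a change of 0.52 with the white adipocyte covariate (adjusted p = 0.0567) and with the skeletal muscle covariate (adjusted p = 0.0821). 2900097C17Rik, the mouse counterpart of the Pumilio-binding NORAD, did not follow: it ranged from 38.7 to 48.5 FPKM in CD, 41.6 to 45.4 in HFD and 52.2 to 54.0 in HFD_IO, with adjusted p of 0.866, 0.0897 and 0.114 in the 3 comparisons. Ftx, a noncoding neighbour of Xist on chromosome X, was at 3.18, 2.17 and 1.89 FPKM in CD, 1.11, 0.913 and 0.721 in HFD and 1.52, 0.928 and 0.716 in HFD_IO. It was lower than CD in HFD (-0.82, adjusted p = 0.00968) and in HFD_IO (-0.73, adjusted p = 0.0165), the latter not without HFD_IO_2 (adjusted p = 0.0588) or HFD_IO_3 (adjusted p = 0.0565). The former was lost with the white adipocyte covariate (adjusted p = 0.0593), with the skeletal muscle covariate (adjusted p = 0.139) and without CD_1 and HFD_3 together (adjusted p = 0.0547).

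The 2 imprinted members were lower than chow in both high fat groups, with no rise under iron. Meg3 (ENSMUSG00000021268, chromosome 12, 109541001 to 109571726, plus strand) was listed at 11.1, 12.3 and 13.9 FPKM in CD, 3.26, 1.40 and 2.14 in HFD and 3.12, 1.66 and 2.15 in HFD_IO. The CD libraries stood apart and the high fat groups overlapped. Meg3 changed by -2.08 (SE 0.22, adjusted p = 0.000574) in HFD and -2.04 (SE 0.22, adjusted p = 0.000198) in HFD_IO against CD, and by 0.04 between HFD_IO and HFD (adjusted p = 0.918). Rian, another RNA of the same imprinted domain that the table classes as a processed transcript and so is no member, changed by -0.89 and -1.50 in the comparisons with CD. H19 (chromosome 7, 142575529 to 142578143, minus strand) was at 2.98, 2.17 and 2.92 FPKM in CD, 1.23, 1.17 and 1.85 in HFD and 1.14, 1.14 and 1.38 in HFD_IO. CD was highest without overlap, and H19 fell by 0.61 (SE 0.15, adjusted p = 0.0113) and 0.73 (SE 0.15, adjusted p = 0.00522), the first missed with the skeletal muscle covariate (-0.67, adjusted p = 0.0842). Of 12 imprinted coding genes looked at beside them, 7 were tested. In HFD against CD 3 were lower and none higher, beside 17.6% lower and 21.8% higher of all tested genes. Among the lower ones was Peg3, a zinc finger protein gene, at -1.28 (adjusted p = 0.00117). Cdkn1c was not called (0.67, adjusted p = 0.0620). In HFD_IO against CD 3 were lower, while Igf2r was higher (1.03, adjusted p = 0.00202).

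LincRNAs named for heart and muscle development included the most abundant member. Bvht (Braveheart, chromosome 18, 61639542 to 61647472, plus strand), a mouse RNA known from cardiac lineage commitment, was at 233, 219 and 336 FPKM in CD, 78.5, 46.9 and 66.4 in HFD and 220, 77.9 and 96.4 in HFD_IO. All HFD values were below the CD values, while HFD_IO_1 was as high as the CD libraries and the other HFD_IO libraries lay near HFD. The change was -2.03 in HFD against CD (SE 0.37, adjusted p = 0.00356), lost with the skeletal muscle covariate (adjusted p = 0.0762). The call for HFD_IO against CD (-1.12, adjusted p = 0.0440) was lost without any one of 7 libraries. These were CD_1 (0.0657), CD_2 (0.0676), CD_3 (0.138), HFD_1 (0.0529), HFD_3 (0.0583), HFD_IO_2 (0.153) and HFD_IO_3 (0.124), with the adjusted p in brackets.

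Carmn, the neighbour of Bvht and the RNA that precedes the smooth muscle microRNAs miR-143 and miR-145, spread widely. It was at 6.54, 28.4 and 53.8 FPKM in CD, 9.00, 4.67 and 4.35 in HFD and 29.7, 14.7 and 14.4 in HFD_IO. CD_1 fell within the HFD range, and no comparison of Carmn passed (adjusted p of 0.0523, 0.1002 and 0.810). Dubr, a regulator known from muscle stem cells, lay between 6.24 and 8.40 FPKM in all 9 libraries and passed in no comparison.

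Of the lincRNAs that host small nucleolar RNAs, Snhg18 and Snhg20 were lower with iron. Snhg18 was at 66.7, 52.1 and 54.7 FPKM in CD, 36.1, 42.7 and 53.4 in HFD and 33.04, 26.3 and 31.8 in HFD_IO. HFD_IO lay below both other groups, and the change against CD was -0.90 (SE 0.16, adjusted p = 0.00289). Against HFD it was -0.51 (adjusted p = 0.0442). That call failed when a single library was dropped, namely CD_2 (0.0570), CD_3 (0.0629), HFD_2 (0.0921), HFD_3 (0.140), HFD_IO_1 (0.0693), HFD_IO_2 (0.139) or HFD_IO_3 (0.0768), with the resulting adjusted p in brackets. Snhg20 was at 8.56, 8.01 and 7.31 FPKM in CD, 6.30, 3.83 and 4.47 in HFD and 3.58, 1.93 and 2.62 in HFD_IO, 3 ranges without overlap. It fell by 1.29 in HFD_IO against CD (SE 0.19, adjusted p = 0.000973). Its smaller changes in HFD against CD (-0.63, adjusted p = 0.0279) and HFD_IO against HFD (-0.66, adjusted p = 0.0301) were less stable. The first was lost without CD_1 (0.0627), CD_2 (0.0717), CD_3 (0.0534), HFD_2 (0.0955) or HFD_3 (0.0768), and the second without HFD_1 (0.0787), HFD_3 (0.0655), HFD_IO_2 (0.0955) or HFD_IO_3 (0.0727), again as adjusted p. In HFD against CD the change was also smaller with the white adipocyte covariate (-0.45, adjusted p = 0.169) and the skeletal muscle covariate (-0.22, adjusted p = 0.452). Snhg6, Snhg10 and Snhg12 passed in no comparison.

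MicroRNA genes lie within 13 members, and 8 of these hosts were lower in HFD than in CD (Meg3, H19, Ftx, Snhg20, E130102H24Rik, 6720427I07Rik, 2900076A07Rik and AL805899.1). The share lower was 37.6% among all 226 members and 17.6% among all tested genes. The deposited values measure the host transcript and not the mature microRNA. Mature sequences of the hosts that fell are shown from RefSeq (GRCm38.p6) with the seed, bases 2 to 8, in capitals, because the seed sets which messages a microRNA can pair with. They share no seed.
mmu-miR-101a-3p in E130102H24Rik (chr4:101346957-101346977, minus strand): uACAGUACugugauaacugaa
mmu-let-7d-5p in 6720427I07Rik (chr13:48536078-48536099, minus strand): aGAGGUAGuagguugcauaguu
mmu-miR-1839-5p in 2900076A07Rik (chr7:81529919-81529940, plus strand): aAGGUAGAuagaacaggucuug
mmu-miR-31-5p in AL805899.1 (chr4:88910614-88910635, minus strand): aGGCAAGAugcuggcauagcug
mmu-miR-374b-5p in Ftx (chrX:103573112-103573133, minus strand): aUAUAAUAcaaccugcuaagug
mmu-miR-770-5p in Meg3 (chr12:109563710-109563731, plus strand): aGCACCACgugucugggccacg
mmu-miR-675-5p in H19 (chr7:142577112-142577133, minus strand): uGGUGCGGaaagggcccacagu
mmu-miR-6516-5p in Snhg20 (chr11:117077370-117077391, plus strand): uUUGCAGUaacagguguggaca
E130102H24Rik, which holds miR-101a, was at 8.17, 9.14 and 7.30 FPKM in CD, 3.30, 1.37 and 2.48 in HFD and 4.89, 4.06 and 4.20 in HFD_IO. The 3 ranges did not overlap, with changes of -1.48 (SE 0.20, adjusted p = 0.00115) in HFD against CD and 0.71 (adjusted p = 0.0268) in HFD_IO against HFD. The latter was lost without HFD_3, HFD_IO_1, HFD_IO_2 or HFD_IO_3 (adjusted p of 0.0598, 0.0856, 0.0565 and 0.0586). It was 0.33 with the skeletal muscle covariate (adjusted p = 0.252) and 0.70 with the white adipocyte covariate (adjusted p = 0.110), and without a filter on low values the adjusted p was 0.0704. The let-7d host 6720427I07Rik was at 10.4, 5.92 and 5.49 FPKM in CD, 2.51, 1.43 and 2.30 in HFD and 3.65, 2.02 and 2.09 in HFD_IO. It was lower than CD in both high fat groups (-1.40, adjusted p = 0.00371, and -1.19, adjusted p = 0.00699). The miR-1839 host 2900076A07Rik also fell, by 1.08 (adjusted p = 0.000774) and 0.76 (adjusted p = 0.00198). The let-7d host call in HFD was lost with the skeletal muscle covariate (-1.08, adjusted p = 0.0798). The miR-31 host AL805899.1 changed by -1.24 in HFD (adjusted p = 0.0106), a call lost with the white adipocyte covariate (-1.04, 0.0704), with the skeletal muscle covariate (-1.39, 0.0746) and without CD_1 and HFD_3 together (-0.96, 0.0605), with the adjusted p second in each bracket. Mir142hg, the host of the blood cell microRNA miR-142, ranged from 2.86 to 8.89 FPKM over the 9 libraries and passed in no comparison.

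**Figure D4:**
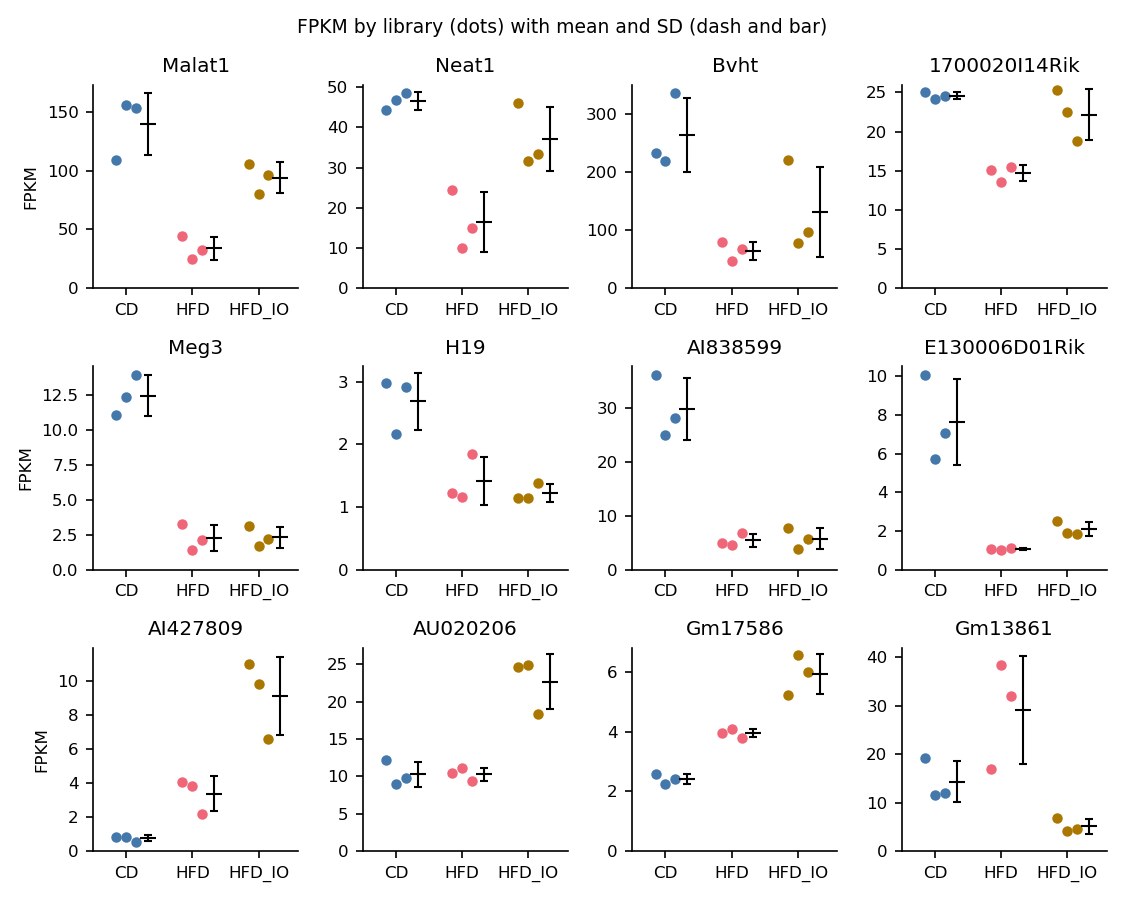
FPKM (vertical axes from 0) of 12 lincRNAs in the 3 libraries of each group (dots, in library order) with the mean and SD (dash and bar). Malat1, Neat1 and 1700020I14Rik are lowest in HFD, Meg3, H19, AI838599 and E130006D01Rik are highest in CD, AI427809, AU020206 and Gm17586 are highest in HFD_IO, and Gm13861 is lowest in HFD_IO.

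The largest falls belonged to lincRNAs of no established function. AI838599 (chromosome 4, 3242055 to 3258092, plus strand) was at 36.1, 24.9 and 28.1 FPKM in CD, 4.90, 4.55 and 6.83 in HFD and 7.71, 3.80 and 5.67 in HFD_IO. CD was apart from the overlapping high fat groups. AI838599 changed by -2.25 (SE 0.23, adjusted p = 0.000519) and -2.21 (SE 0.23, adjusted p = 0.000152) against CD, and both calls held in every alternative. Gm48053 (chromosome 10) was at 25.2, 11.2 and 10.1 FPKM in CD, 2.12, 1.15 and 1.54 in HFD and 3.93, 1.60 and 3.52 in HFD_IO, with CD_1 far above the other libraries. It had the largest fall on high fat diet, of 2.57 (SE 0.35, adjusted p = 0.00123).

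5430431A17Rik (chromosome 7) had the largest fall with both treatments. It was at 16.6, 23.1 and 14.4 FPKM in CD, 3.59, 1.13 and 3.72 in HFD and 4.69, 0.289 and 0.855 in HFD_IO, a change of -2.97 (SE 0.52, adjusted p = 0.00245) in HFD_IO against CD. Gm16907 (chromosome 13) lies on the same strand within Fancc, a DNA repair gene, so reads of the pair cannot be fully told apart. It was at 7.67, 19.1 and 14.96 FPKM in CD, 3.31, 1.14 and 1.46 in HFD and 8.03, 6.01 and 10.1 in HFD_IO. HFD was lowest, with changes of -2.31 (adjusted p = 0.00179) and then 1.65 (adjusted p = 0.00977), the largest rise under iron. The second call was lost with the white adipocyte covariate (1.34, adjusted p = 0.0691) and the skeletal muscle covariate (1.10, adjusted p = 0.105). Fancc was also called lower in HFD than in CD, a call lost with the skeletal muscle covariate (-0.46, adjusted p = 0.0641). Fancc itself did not rise with iron (-0.04, adjusted p = 0.748). Gm44053 showed the same shape at lower level: 3.10, 2.44 and 3.90 FPKM in CD, 0.492, 0.386 and 0.729 in HFD, and 2.97, 2.28 and 2.07 in HFD_IO. It differed by 1.16 between HFD_IO and HFD, which is a description only, since no HFD library reached the limit of 1 FPKM.

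Some neighbouring members fell together and others did not. In HFD against CD, Bvht was called lower but Carmn beside it was not. On chromosome 8 Gm45353 was called lower but Zfp469 was not. Of all 226 members 37.6% were lower in that comparison. On chromosome 5, between 111734284 and 111805689, lie E130006D01Rik, Gm16019 and Gm36535, and all 3 were lower than CD in both high fat groups. E130006D01Rik was at 10.1, 5.74 and 7.04 FPKM in CD, 1.05, 1.03 and 1.13 in HFD and 2.51, 1.92 and 1.83 in HFD_IO, 3 ranges without overlap. It changed by -2.03 (SE 0.17, adjusted p = 0.000281) and -1.46 (SE 0.17, adjusted p = 0.000331) against CD. Gm16019 overlaps it on the opposite strand, so their reads cannot be told apart here, and changed by -1.44 and -1.35. Gm36535 overlaps neither and changed by -1.08 (adjusted p = 0.00545) and -1.67 (adjusted p = 0.000498), the first missed with the skeletal muscle covariate (-1.05, adjusted p = 0.0730). 

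Fewer lincRNAs rose, and the 5 largest rises of HFD_IO against CD belonged to members that stayed below 1 FPKM in all 3 CD libraries (AI427809, Gm43351, Gm14461, AU022793 and Gm5547). They passed the filter through the high fat groups, so a difference from CD was built into their choice, and their changes against CD are given as descriptions with no test. AI427809 (chromosome 4, 53261356 to 53270232, minus strand) was at 0.849, 0.838 and 0.556 FPKM in CD, 4.05, 3.84 and 2.18 in HFD and 11.0, 9.80 and 6.55 in HFD_IO. The 3 ranges were separate, with changes of 1.29 in HFD and 2.51 in HFD_IO against CD. Between HFD_IO and HFD, where all 6 libraries passed the filter, it rose by 1.22 (SE 0.22, adjusted p = 0.00522), a call missed with the skeletal muscle covariate (1.11, adjusted p = 0.0595). Its nearest coding gene, 101461 bases away on the same strand, is Abca1, the pump that exports cholesterol from macrophages. Abca1 rose as well, by 0.85 (adjusted p = 0.0144) in HFD and by 2.34 (adjusted p = 8.4e-05) in HFD_IO against CD, the first not called after TPM scaling (0.50, adjusted p = 0.169) or with the skeletal muscle covariate (adjusted p = 0.0580). AU022793, head to head with the lipoprotein receptor family gene Lrp12, went from 0.0823 to 0.395 FPKM in CD and 0.983 to 1.26 in HFD to 2.35 to 5.54 in HFD_IO. Its change in HFD_IO against CD was 1.89, beside 2.20 for Lrp12 (adjusted p = 0.00016).

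Gm43351 and Gm14461 were close to absent on chow. Gm43351 was listed at 0, 0.348 and 0 FPKM in CD, 1.75, 1.28 and 0.378 in HFD and 4.31, 5.45 and 4.00 in HFD_IO, a change of 0.89 in HFD and 2.33 in HFD_IO against CD. Gm14461, which RefSeq lists as protein-coding, was at 0.0305, 0.0955 and 0.370 FPKM in CD, 2.09, 2.29 and 1.76 in HFD and 6.68, 4.12 and 2.55 in HFD_IO. Its change was 1.39 on high fat diet and 2.17 with iron added, against CD. Gm5547 differed from CD by 1.03 in HFD and 1.10 in HFD_IO, and by 0.07 between HFD_IO and HFD (adjusted p = 0.810). Macrophage markers moved in the same direction, as given above. So did cartilage markers, which summed to 34.4 to 51.3 FPKM in CD, 52.8 to 122.6 in HFD and 158.9 to 604 in HFD_IO, with 5 of 8 tested higher in HFD than CD and 4 higher in HFD_IO than HFD. The part of either cell type was not tested.

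AU020206 and Gm17586 were present in all libraries and rose with iron. AU020206 (chromosome 7, 75769038 to 75782099, minus strand) was at 12.2, 8.99 and 9.71 FPKM in CD, 10.4, 11.1 and 9.32 in HFD and 24.7, 24.9 and 18.4 in HFD_IO. CD and HFD overlapped, and every HFD_IO value was higher. It rose by 1.06 (SE 0.15, adjusted p = 0.00222) against HFD and by 1.06 (SE 0.15, adjusted p = 0.000733) against CD, and both calls held in every alternative. Gm17586 (chromosome 11, 120633768 to 120635125, plus strand) starts 168 bases from Mafg, head to head; Mafg encodes a small MAF protein that pairs with NRF2 in the oxidative stress response. Gm17586 was at 2.58, 2.25 and 2.42 FPKM in CD, 3.96, 4.08 and 3.79 in HFD and 5.24, 6.57 and 5.99 in HFD_IO, 3 separate ranges. It rose by 0.54 (SE 0.10, adjusted p = 0.00368), 0.48 (SE 0.10, adjusted p = 0.00840) and 1.02 (SE 0.10, adjusted p = 0.000101) in the 3 comparisons. Voom on recovered reads gave an adjusted p of 0.0537 for the second, and TPM scaling 0.104 for the first. Both narrowly missed the threshold with the skeletal muscle covariate, at 0.49 (adjusted p = 0.0653) and 0.52 (adjusted p = 0.0554). Mafg did not step in the same way: it fell by 0.51 in HFD against CD (adjusted p = 0.00914) and was 0.60 higher in HFD_IO than in HFD (adjusted p = 0.00698), calls that neither marker covariate kept.

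Some lincRNAs were lower with iron than on high fat diet alone. Gm13861 (chromosome 6, 34651354 to 34653894, minus strand) was at 19.3, 11.7 and 12.1 FPKM in CD, 16.9, 38.5 and 31.9 in HFD and 6.88, 4.05 and 4.46 in HFD_IO. HFD_IO lay below all other libraries, and CD and HFD overlapped. It fell by 2.25 between HFD and HFD_IO (SE 0.31, adjusted p = 0.00214), the largest fall of that comparison. Against CD it was 1.32 lower in HFD_IO (adjusted p = 0.0111). It was also called higher in HFD than in CD (0.93, adjusted p = 0.0416), a call lost without any 1 of 6 libraries. It overlaps Cald1, the gene for the smooth muscle protein caldesmon, on the opposite strand, and Cald1 differed by -0.22 (adjusted p = 0.216). 6330403K07Rik, which RefSeq lists as protein-coding, was at 3.02, 2.09 and 2.54 FPKM in CD, 6.58, 8.97 and 3.17 in HFD and 1.27, 0.499 and 1.06 in HFD_IO, and fell by 1.83 with iron (adjusted p = 0.00355). Gm17501, head to head with Cyr61, the gene for a matrix protein, was at 7.40 to 9.70 FPKM in CD, 7.67 to 8.81 in HFD and 3.10 to 5.26 in HFD_IO, and fell by 0.77 with iron (adjusted p = 0.0111), at a level on high fat diet that overlapped chow. That call was missed with the skeletal muscle covariate (-0.85, adjusted p = 0.0613). Smooth muscle markers were lower in the same libraries. Of 7 tested brown adipocyte markers 4 were higher and 1 lower in HFD than CD, and 4 were lower in HFD_IO than HFD. The list summed to 262.2 to 492.2 FPKM in CD, 639.7 to 1655 in HFD and 227.2 to 333.2 in HFD_IO. Erythroid markers summed to 4678 to 12380, 8325 to 26100 and 2573 to 4151 FPKM, and 4 of 6 tested were lower with iron. The part of these cells in the changes was not tested.

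The class name did not settle what each member is. RefSeq matched 133 members, of which it lists 121 as long noncoding, 9 as protein-coding and 3 as pseudogenes. Among the coding ones Tmem250-ps was at 18.5, 19.7 and 20.3 FPKM in CD and 29.0, 27.9 and 30.0 in HFD, a rise of 0.55 (adjusted p = 0.00186) that was not called after TPM scaling (0.18, adjusted p = 0.218). Zfp469, a large zinc finger gene known from the collagen-rich cornea, rose by 0.82 with iron against HFD (adjusted p = 0.00670). Gm10076, a pseudogene in RefSeq, was at 19.3 to 69.0 FPKM in 8 libraries and at 189 in HFD_IO_3 alone, and no comparison of it passed. Another gene overlaps 81 members, 66 on the opposite strand and 23 on the same strand, and the sources used here do not say whether counting used the strand. The 81 overlapping members had 42 lower and 4 higher between HFD and CD, and the 145 others 43 lower and 13 higher.

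Each member was also set beside its nearest protein-coding gene. The largest class of pairs was head to head (62 members, 33 of them within 1 kilobase). In 180 pairs the coding gene was tested too. Of the lincRNAs called between HFD and CD, 43 of 79 had a neighbour whose change had the same sign (54.4%), beside 55.3% for coding genes and their nearest coding genes. The shares were 24 of 39 (61.5%) beside 56.7% for HFD_IO against HFD, and 44 of 60 (73.3%) beside 60.4% for HFD_IO against CD. The first was near the coding background, and no test was made of the others. Pairs that moved apart included 5430431A17Rik and Emc10, which was 0.65 higher in HFD than in CD (adjusted p = 0.00511) but not called after TPM scaling (0.26, adjusted p = 0.146).

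**Figure D5:**
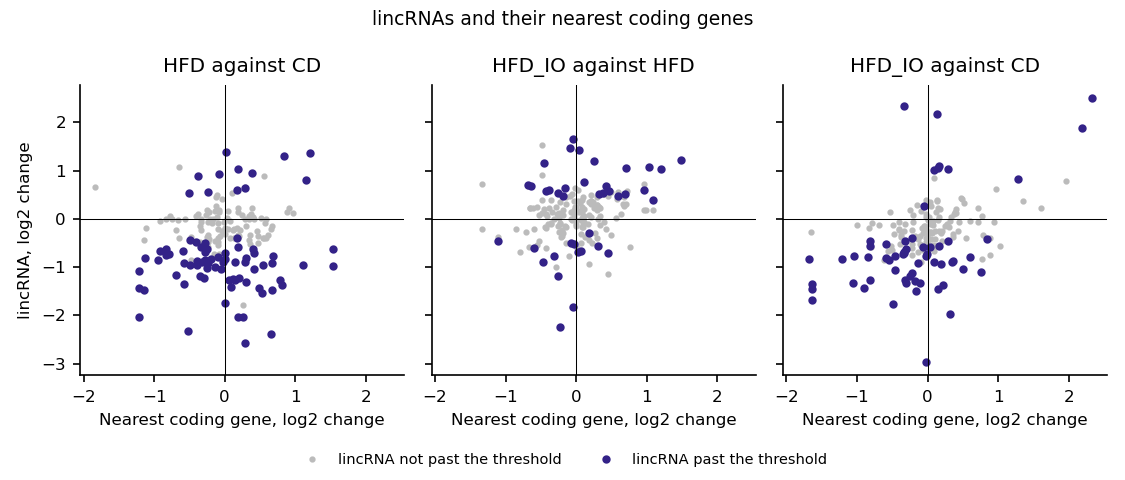
Log2 change of each lincRNA (vertical axis) against that of its nearest tested coding gene (horizontal axis) for 180 pairs in the 3 comparisons, with called lincRNAs in dark blue. Points spread over all 4 quadrants in HFD against CD, where 43 of 79 called lincRNAs share the sign of their neighbour, and 44 of 60 do in HFD_IO against CD.

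Promoter sequences were read for members that carried the results above, from 250 bases before to 50 after the start in RefSeq (GRCm38.p6), which matched 107 of the 226. Motifs searched on both strands were the AP-1 site TGANTCA, the MAF and NRF2 element TGACNNNGC, the E box CACGTG, the ETS and PU.1 core GAGGAA and the TATA box TATAAA. Matches are in capitals. Malat1 and Meg3 are shown for the large falls, E130006D01Rik for the group on chromosome 5, and AU020206 and Gm17586 for the rises with iron.
Malat1 (chr19:5802623-5802922, minus strand): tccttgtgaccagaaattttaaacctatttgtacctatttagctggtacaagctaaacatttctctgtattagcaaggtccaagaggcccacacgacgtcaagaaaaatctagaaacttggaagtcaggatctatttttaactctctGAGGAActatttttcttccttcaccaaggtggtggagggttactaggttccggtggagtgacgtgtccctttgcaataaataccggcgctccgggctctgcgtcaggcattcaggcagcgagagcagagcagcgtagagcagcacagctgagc
Meg3 (chr12:109540746-109541045, plus strand): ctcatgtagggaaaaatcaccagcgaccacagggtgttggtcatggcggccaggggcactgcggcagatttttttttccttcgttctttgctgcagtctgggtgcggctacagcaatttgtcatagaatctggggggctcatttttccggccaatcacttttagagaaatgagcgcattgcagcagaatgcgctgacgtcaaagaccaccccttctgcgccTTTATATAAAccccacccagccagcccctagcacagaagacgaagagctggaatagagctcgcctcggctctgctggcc
E130006D01Rik (chr5:111761679-111761978, minus strand): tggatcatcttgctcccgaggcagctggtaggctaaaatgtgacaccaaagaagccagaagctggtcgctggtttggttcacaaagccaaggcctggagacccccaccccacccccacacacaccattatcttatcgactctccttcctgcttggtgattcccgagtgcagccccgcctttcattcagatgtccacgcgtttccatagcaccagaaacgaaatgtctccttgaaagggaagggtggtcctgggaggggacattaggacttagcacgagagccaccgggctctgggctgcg
AU020206 (chr7:75782071-75782370, minus strand): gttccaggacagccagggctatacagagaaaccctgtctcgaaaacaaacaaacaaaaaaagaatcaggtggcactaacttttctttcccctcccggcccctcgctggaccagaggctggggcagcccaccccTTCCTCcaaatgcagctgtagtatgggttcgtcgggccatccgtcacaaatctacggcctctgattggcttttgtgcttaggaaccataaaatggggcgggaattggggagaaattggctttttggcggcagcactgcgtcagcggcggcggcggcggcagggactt
Gm17586 (chr11:120633500-120633799, plus strand): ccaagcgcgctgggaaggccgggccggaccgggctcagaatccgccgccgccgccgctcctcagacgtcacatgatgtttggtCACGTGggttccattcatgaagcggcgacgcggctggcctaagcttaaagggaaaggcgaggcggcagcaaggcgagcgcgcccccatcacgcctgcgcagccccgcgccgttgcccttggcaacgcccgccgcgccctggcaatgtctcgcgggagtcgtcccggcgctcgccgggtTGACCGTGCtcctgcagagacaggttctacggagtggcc
Gm17586 held an E box, which reads the same on both strands, and 1 match to the MAF and NRF2 element just after its start. Meg3 held 2 overlapping matches to the TATA box, 1 on each strand, from 29 bases before the start. Malat1 and AU020206 each held 1 ETS core, and E130006D01Rik none of the 5 motifs. Over the 107 member promoters the shares with a match were 7.48% for AP-1, 11.2% for the MAF and NRF2 element, 8.41% for the E box, 31.8% for the ETS core and 12.1% for the TATA box. Over all 32851 promoters of the table they were 7.81%, 12.4%, 7.15%, 28.3% and 13.6%, so the members' shares were close to those of promoters at large. A match is a run of letters and not a measured binding site.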

How the data were processed

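Aortas of 9 Apoe-/- mice were sequenced as total RNA after column extraction and NEBNext library preparation, per the labels' protocols. The submitters' processing notes name HISAT2 and hg38, a human build, although the identifiers and coordinates are those of mouse GRCm38: all 226 members are in GENCODE M21, 221 with the same coordinates. Neither the counting tool nor the annotation release nor strand use is stated in those sources. The authors deposited FPKM per gene and library, with gene length. Columns name a group and a number that the labels do not repeat, so libraries were assigned to groups only.

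FPKM times gene length gave whole reads within 0.05 for 100% of values above 0 in every library, and 1 read per kilobase is worth 0.0541 to 0.0615 FPKM. No pair of libraries within a group agreed within sampling noise (chi-square per degree of freedom of 6.41 to 56.4).

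All 13883 genes with at least 1 FPKM in at least 3 of 9 libraries entered 1 fit of log2(FPKM + 1) with 3 group means. The fit used limma 3.58.1 in R 4.3.3, letting the variance follow the mean, and the Benjamini-Hochberg adjustment ran over all of these genes at a threshold of 0.05. The calculation was tested on simulated data. Alternatives changed the pseudocount (0.1, 0.5), filter, scaling and covariates, and left out libraries. Voom on recovered reads was chosen after seeing the data.

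The members, role lists and marker lists were chosen with earlier results of these data known. Members named are those in the role lists, the 10 most abundant, the 3 nearest the limit on either side, the 10 largest rises and falls of each comparison among called members whose groups do not overlap, members that hold a microRNA or that RefSeq lists as coding, and nearest coding genes. Of these the text gives a part in full. Gm16019 stands outside this rule and was chosen after its values were seen.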

Additional observations from a re-analysis of the deposited data

How the results depend on the processing

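No called change of a named lincRNA reversed its direction in any alternative. Among coding genes set beside them, changes between HFD and CD reversed after TPM scaling for Nono (-0.059), Hnrnpk (-0.11), Tmem30a (-0.081) and Trp53inp1 (-0.38), and for Hnrnpk (-0.029) after quantile normalization. Of 110 calls on named members, 78 were kept whichever single library was left out and 49 under every setting. Without the filter on low values 9 lincRNAs were higher in HFD than CD, and 17 higher and 8 lower in HFD_IO than HFD. The shares of all 30663 genes in that fit were 7.83%, 4.996% and 4.51%, also below those of the main fit. A filter on mean FPKM left 8 higher in HFD_IO than CD, beside 17.49% of all genes in that fit. TPM scaling gave 7 higher in HFD than CD and 10 lower in HFD_IO than HFD, beside the shares given above. Removal of the length trend gave 9 lower in the latter, beside 13.8% of all tested genes. The white adipocyte covariate gave 11 higher and 48 lower in HFD than CD, and 9 higher and 9 lower in HFD_IO than HFD. The skeletal muscle covariate gave 2 and 26, then 6 and 5. The cause of these shifts was not tested. Leaving out 1 library gave 9 to 17 higher and 68 to 87 lower for HFD against CD, 19 to 36 higher and 8 to 21 lower for HFD_IO against HFD, and 10 to 16 higher and 38 to 64 lower for HFD_IO against CD. Over the same fits, all tested genes ran from 14.7% to 23.9% higher and 12.0% to 20.5% lower for HFD against CD. For HFD_IO against HFD their shares were 8.51% to 17.55% and 7.87% to 18.06%. For HFD_IO against CD they were 12.86% to 18.53% and 9.08% to 17.74%. The share of reads in CD was 0.366% without Malat1 and 0.492% as a share of summed FPKM, and that in HFD_IO 0.255% without Malat1. Voom on recovered reads, added after seeing the data, gave 17 higher and 81 lower, 25 and 14, and 14 and 58. The shares of all tested genes were 21.9% and 17.9%, 14.9% and 14.5%, and 17.7% and 15.6%. Count models (edgeR, DESeq2) were planned and not run. The deposited unit is FPKM, and of the fits only voom used the recovered reads. No paired analysis was possible because the labels number the aortas 1 to 9 and the columns' numbers are not in the labels. At 1 FPKM a member of 1 kilobase rests on under 20 reads, so small changes of the weakest members were not detectable at this depth.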

Other observations

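Several well-known noncoding RNAs are not among the members. Firre, a nuclear RNA of chromosome X that the table classes as a processed transcript, changed by -1.69 in HFD against CD (adjusted p = 0.000376) and by -1.21 in HFD_IO against CD (adjusted p = 0.000515). Fendrr, known from heart and body wall development, differed by -1.22 and -0.91 in the same comparisons. These are descriptions only, since its CD libraries passed the limit of 1 FPKM and no HFD library reached it (0.18 to 0.826 FPKM). Dnm3os, the antisense host of miR-199a and miR-214, changed by -1.31 (adjusted p = 0.000692) and -1.22 (adjusted p = 0.000362). Gas5, a host of small nucleolar RNAs, passed in no comparison. All adjusted p-values are limma's. Among lincRNA rows below the limit, Hotair and Hottip, which lie in the HOX clusters, were listed at 0 in every library.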
